A study of Mus musculus with 36 samples.

Results

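The genes described here are 40 genes of skeletal muscle, read in RNA from mouse lung after instillation of titanium dioxide nanoparticles. They were chosen by gene symbol, as genes whose products form or serve the contractile apparatus of skeletal muscle, and the rule uses no measured value. All 40 were found among the 36799 gene names of the array, each read through its probe of highest mean signal. Female C57BL/6 mice, 5 to 7 weeks old, received 1 intratracheal instillation of Tube TiO2NPs in 40 µl, and the lung was taken at day 1 (after 24 h) or day 28. The groups at day 1 were control (0 µg, 4 mice on 5 arrays), 18 µg (3 mice on 4 arrays), 54 µg (3 mice on 4 arrays) and 162 µg (4 mice on 5 arrays). The groups at day 28 were control (3 mice on 4 arrays), 18 µg (4 mice on 4 arrays), 54 µg (4 mice on 5 arrays) and 162 µg (4 mice on 5 arrays), which makes 29 mice and 36 arrays. For 1 of the 162 µg mice of day 28, mouse 1, the title gives day 1 and the time label day 28, and it was kept in day 28. RNA came from random sections of lung, so an array measures a piece of an organ that lies next to heart, great vessels, gullet and chest wall. Each array carried lung RNA in Cy5 and a reference RNA of 11 mouse cell lines in Cy3, with no dye swap. Levels below are log2 Cy5 intensities after normalization, and changes are differences of log2(Cy5/Cy3).

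Skeletal muscle fibres contract when calcium, released from the sarcoplasmic reticulum, binds troponin on the thin actin filament and lets the myosin heads of the thick filament pull on it. Fibres come in types that are told apart by the myosin heavy chain they express: type I (slow, Myh7), type IIa (Myh2), type IIx (Myh1) and type IIb (Myh4), and many other sarcomere proteins have a slow and a fast form. Healthy lung parenchyma holds smooth muscle around airways and vessels and heart-type muscle in the walls of the pulmonary veins, but no skeletal muscle fibres.

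The arrays fell into separate sets by the mean level of the 40 genes, before any grouping by dose. On 12 arrays the mean lay between 9.32 and 13.53, and on the other 24 between 7.08 and 7.95, with a gap of 1.37 between them that was the widest between neighbouring arrays. This split was read from the genes themselves, so it is given as a description, with no test and no averaging over either set. On the 12 arrays 33 to 40 of the 40 genes were well above background, and on the 24 arrays 18 to 31 were. Of all probes, 49.1% to 57.1% were well above background on the 12 arrays and 48.6% to 62.2% on the 24. The 12 arrays came from 11 mice of 6 groups: mice 1 (second array), 2, 3 and 4 of the day 1 controls, mouse 3 at 18 µg, mouse 2 at 54 µg and mouse 3 at 162 µg on day 1, and on day 28 mouse 1 at 18 µg and mice 1 (both arrays), 2 and 3 at 54 µg. No array of the 3 control mice or of the 4 mice at 162 µg on day 28 was among them. Slides 1 to 5 held 1 of 7, 3 of 5, 4 of 8, 2 of 8 and 2 of 8 arrays of this kind, so none of the slides held all of them or none.

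**Figure D1:**
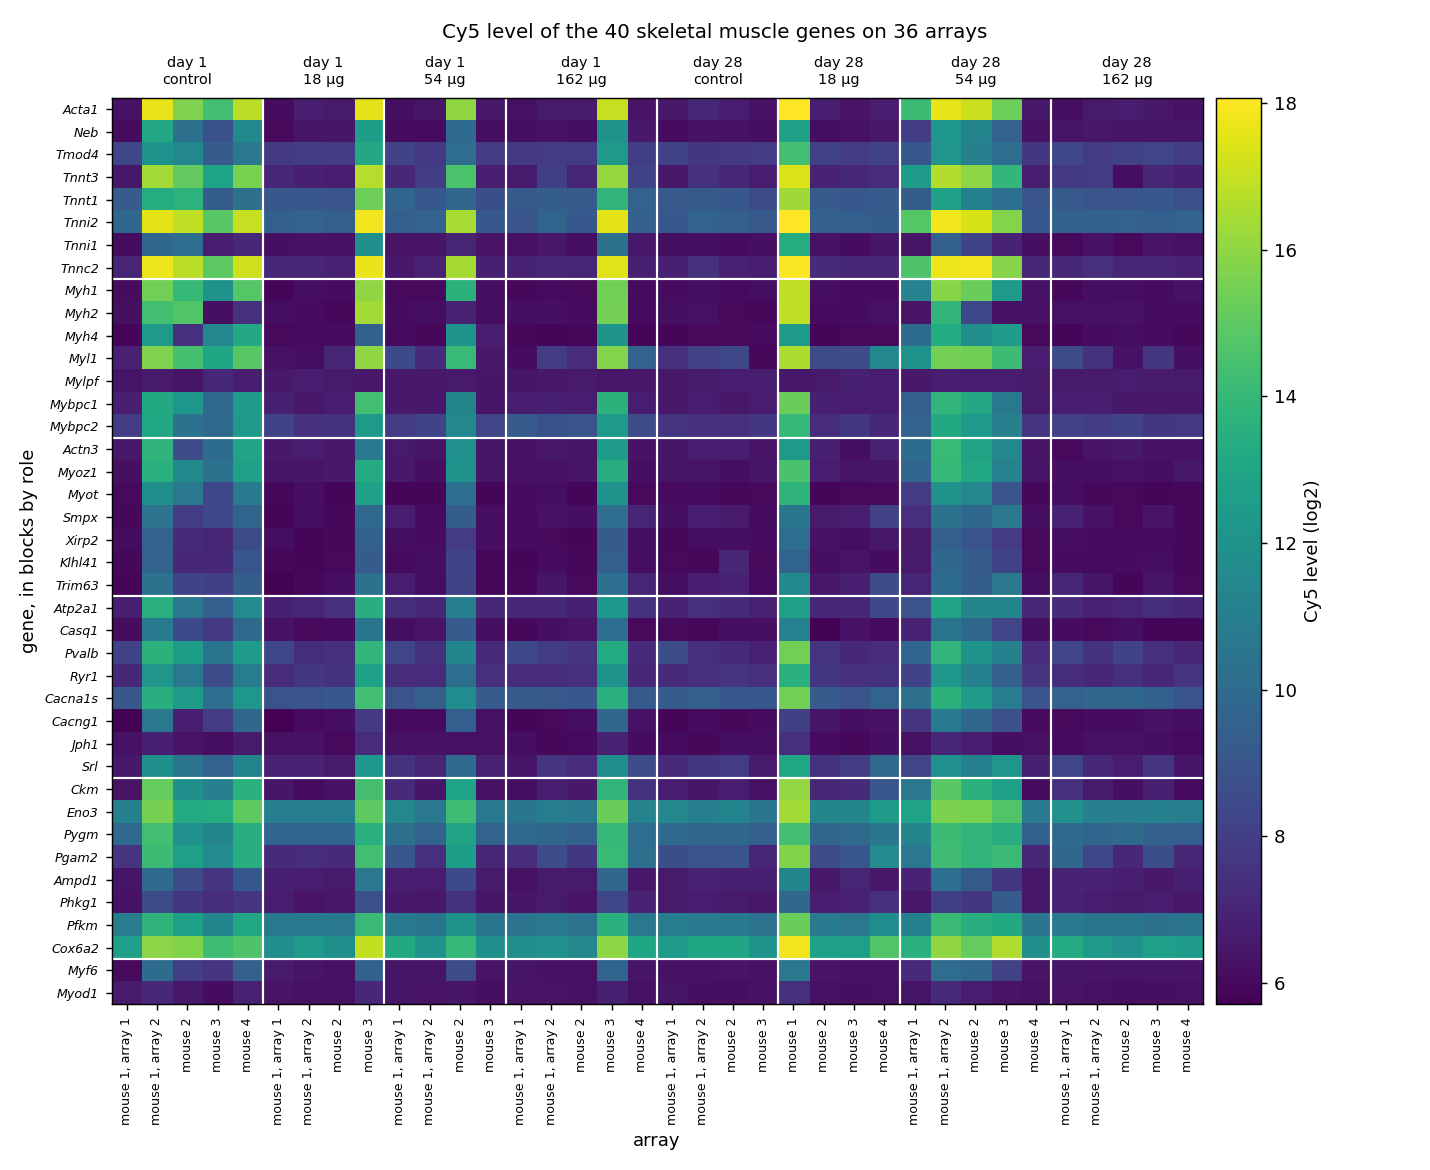
Log2 Cy5 level of each of the 40 genes (rows, in blocks by role from thin filament at the top to transcription factors at the bottom) on each of the 36 arrays (columns, by day and dose). Bright columns are the 12 arrays with a mean level of 9.32 or more, and they stand in 6 of the 8 groups.

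Over mice, with repeat arrays averaged, the mean level of the 40 genes was 10.56 ± 0.85 in day 1 controls (SD, n = 4), 9.01 ± 3.17 at 18 µg (n = 3), 8.44 ± 2.07 at 54 µg (n = 3) and 8.61 ± 2.53 at 162 µg (n = 4). At day 28 it was 7.28 ± 0.17 in controls (n = 3), 9.07 ± 2.99 at 18 µg (n = 4), 10.20 ± 2.08 at 54 µg (n = 4) and 7.28 ± 0.14 at 162 µg (n = 4). The SD was 0.14 and 0.17 in the groups with no mouse above the gap and 0.85 to 3.17 in the other 6. At 18 µg on day 28 the 4 mice lay at 13.53, 7.41, 7.40 and 7.95, so that no mouse was near the group mean of 9.07. In tissue RNA, fewer muscle cells and less muscle RNA per cell cannot be told apart.

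**Figure D2:**
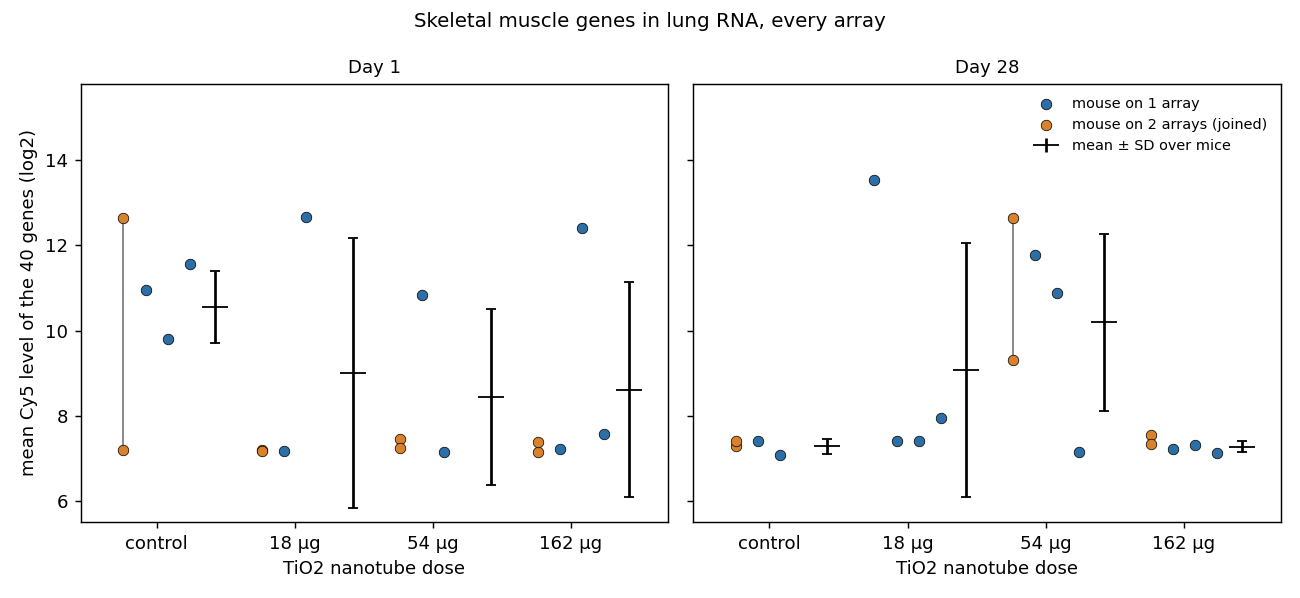
Mean log2 Cy5 level of the 40 genes on every array (points), by dose, at day 1 (left) and day 28 (right). Orange points joined by a line are the 2 arrays of 1 mouse, and bars are the mean ± SD over mice. The lowest of the 12 high arrays is at 9.32 and the highest of the other 24 at 7.95.

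Among the 8 thin filament genes, the widest range was that of Acta1 (chromosome 8), the actin of adult skeletal muscle. In day 1 control mice, the level of Acta1 was 17.67 and 6.30 on the second and first array of mouse 1, and 15.70, 14.36 and 16.81 in mice 2, 3 and 4. At 18 µg on day 1 it was 6.74 and 6.14 in mouse 1, 6.60 in mouse 2 and 17.55 in mouse 3, at 54 µg 6.45 and 6.23 in mouse 1, 16.02 in mouse 2 and 6.48 in mouse 3, and at 162 µg 6.59 and 6.28 in mouse 1, 6.60 in mouse 2, 16.99 in mouse 3 and 6.37 in mouse 4. These values lie either near 6.5, close to background, or at 14.36 and above, with none between. In day 28 control mice it was 7.07 and 6.55 in mouse 1, 6.71 in mouse 2 and 6.31 in mouse 3. At 18 µg on day 28 it was 18.07, 6.75, 6.38 and 6.65 in mice 1 to 4, at 54 µg 17.60 and 14.17 in mouse 1 and 17.07, 15.34 and 6.48 in mice 2, 3 and 4, and at 162 µg 6.58 and 6.21 in mouse 1 and 6.67, 6.53 and 6.32 in mice 2, 3 and 4. The range of Acta1 was therefore 11.94 log2 units, and mouse 1 of the day 1 controls showed almost all of it between its own 2 arrays. Tnnc2, the calcium-binding troponin C of fast fibres, read 14.62 to 17.98 on the 12 arrays and 6.53 to 7.47 on the 24. Tnni2, the inhibitory troponin of fast fibres, had a lowest, median and highest level over the 36 arrays of 8.95, 9.58 and 18.07, and Tnnt3, the tropomyosin-binding troponin of fast fibres, of 6.18, 7.37 and 17.42. These fast troponins shared the pattern of Acta1, with 12.49 to 17.42 for Tnnt3 on the 12 arrays and 6.18 to 8.25 on the 24. Neb (nebulin, which spans the thin filament) read 7.95 to 13.15 and 6.01 to 6.56, and Tmod4 (tropomodulin, which caps the slow-growing filament end) 9.08 to 14.38 and 7.66 to 8.34. The slow troponins behaved differently: Tnnt1 read 9.34 to 16.29 on the 12 arrays and 8.60 to 9.76 on the 24, and Tnni1 6.43 to 13.36 and 6.02 to 6.51, so that both ranges overlapped. Their lowest, median and highest levels over all arrays were 8.60, 9.24 and 16.29 for Tnnt1 and 6.02, 6.34 and 13.36 for Tnni1.

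Among the 7 thick filament genes, Myh1, the heavy chain of type IIx fibres, was well above background on all 12 arrays and on none of the 24. Its level was 11.18 to 16.90 on the 12 and 5.95 to 6.31 on the 24, with a median of 6.17 over all arrays. Myl1, the essential light chain of fast myosin, read 12.03 to 16.53 on the 12 arrays and 5.96 to 11.48 on the 24, the widest range of any of the 40 genes within the 24. Its lowest, median and highest levels over all arrays were 5.96, 8.44 and 16.53. Mybpc1 and Mybpc2, the slow and fast myosin-binding proteins C, read 9.39 to 15.28 and 9.63 to 14.01 on the 12 arrays and 6.43 to 6.82 and 7.09 to 9.25 on the 24. Mylpf, the regulatory light chain of fast myosin, was nearly flat at 6.38, 6.59 and 7.06 (lowest, median and highest). That probe matches a predicted transcript. The second Mylpf probe, on a curated transcript, ranged from 6.10 to 9.84 and was above background on 13 arrays, so the flat reading holds for 1 of its 2 probes. In all, 11 of the 40 genes had a second probe, and those of Smpx and Phkg1 were also much flatter (ranges of 0.43 and 0.90) than the probes kept (4.73 and 3.54). Those of Myl1 and Trim63 ranged over 7.19 and 3.19, against 10.57 and 5.79 for the probes kept. They were above background on 17 and 11 arrays, against 31 and 19. That of Tnnt3 had a slightly wider range than the probe kept (11.4 against 11.2).

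Myh2 and Myh4, the heavy chains of type IIa and type IIb fibres, did not follow Myh1 on every array, although the 3 genes lie next to each other on chromosome 11. On day 1 the level of Myh2 on the 12 arrays was 14.33, 14.69, 6.21 and 7.46 in the day 1 control mice (array 2 for mouse 1), 16.35 in mouse 3 at 18 µg, 6.88 in mouse 2 at 54 µg and 15.49 in mouse 3 at 162 µg. On day 28 it was 16.87 in mouse 1 at 18 µg, 13.83 and 6.34 on arrays 2 and 1 of mouse 1 at 54 µg, and 8.39 and 6.32 in mice 2 and 3 at 54 µg. Myh2 was thus at 13.83 or more on 6 of the 12 arrays and at 8.39 or less on the other 6, and at 5.95 to 6.31 on the 24. On day 1 the level of Myh4 was 12.40, 7.38, 11.42 and 13.16 in the day 1 control mice (array 2 for mouse 1), 9.53 in mouse 3 at 18 µg, 12.01 in mouse 2 at 54 µg and 12.13 in mouse 3 at 162 µg. On day 28 it was 12.43 in mouse 1 at 18 µg, 13.30 and 10.07 on arrays 2 and 1 of mouse 1 at 54 µg, and 11.77 and 12.48 in mice 2 and 3 at 54 µg. Myh4 was lowest in control mouse 2 of day 1 (7.38) and next lowest in the 18 µg mouse 3 of day 1 (9.53), where Myh2 read 14.69 and 16.35. On the 24 arrays Myh4 read 5.89 to 6.64. The lowest, median and highest levels over all 36 arrays were 5.95, 6.22 and 16.87 for Myh2 and 5.89, 6.06 and 13.30 for Myh4. Levels of different probes are not compared with each other here, only the same probe between arrays.

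The promoter windows of these neighbours and of Acta1 are printed because the 4 genes moved together on some arrays and apart on others. Windows of 250 bases before to 50 bases after the transcript start were available from RefSeq (GRCm38.p6) for 27 of the 40 genes, and capitals mark each E-box (CANNTG), the motif that Myod1, Myf6 and related factors bind.
Acta1 promoter (chr8:123894726-123895025, minus strand): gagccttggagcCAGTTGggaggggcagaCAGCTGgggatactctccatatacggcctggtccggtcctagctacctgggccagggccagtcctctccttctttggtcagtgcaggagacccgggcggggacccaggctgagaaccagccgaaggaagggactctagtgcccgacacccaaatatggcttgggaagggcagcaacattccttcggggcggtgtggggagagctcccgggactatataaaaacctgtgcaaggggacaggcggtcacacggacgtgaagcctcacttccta
Myh2 promoter (chr11:67170777-67171076, plus strand): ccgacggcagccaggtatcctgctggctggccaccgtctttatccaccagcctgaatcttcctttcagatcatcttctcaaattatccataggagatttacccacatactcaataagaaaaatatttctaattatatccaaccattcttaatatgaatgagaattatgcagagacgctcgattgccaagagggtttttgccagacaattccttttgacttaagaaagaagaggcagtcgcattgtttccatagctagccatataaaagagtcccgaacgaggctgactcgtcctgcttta
Myh1 promoter (chr11:67199852-67200151, plus strand): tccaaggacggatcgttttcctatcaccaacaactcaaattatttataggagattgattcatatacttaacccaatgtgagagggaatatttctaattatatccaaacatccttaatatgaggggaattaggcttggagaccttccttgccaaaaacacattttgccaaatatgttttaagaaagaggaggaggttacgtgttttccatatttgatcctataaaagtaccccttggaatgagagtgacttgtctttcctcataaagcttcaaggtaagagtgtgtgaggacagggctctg
Myh4 promoter (chr11:67237562-67237861, plus strand): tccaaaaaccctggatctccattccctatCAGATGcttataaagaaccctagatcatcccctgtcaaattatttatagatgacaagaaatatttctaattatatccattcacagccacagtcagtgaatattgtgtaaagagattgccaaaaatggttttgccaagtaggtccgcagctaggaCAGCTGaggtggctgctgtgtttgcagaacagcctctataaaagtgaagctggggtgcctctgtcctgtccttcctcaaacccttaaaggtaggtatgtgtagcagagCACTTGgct
Acta1 holds 2 E-boxes in this window and Myh4 holds 3, while the letters CANNTG do not occur in the Myh2 and Myh1 windows. Each of the 4 windows has at least 1 TATAAA on either strand. Over the 27 genes, CANNTG was in the window of 23 (85.2%, against 75.0% of 27025 genes), and its form CAGCTG in 15 (55.6%, against 18.3%). TATAAA was in 7 (25.9%, against 15.7%) and CTAAAAATA, a form of the Mef2 motif, in 1 (3.7%, against 0.6%). Both strands were searched, every CAGCTG is also a CANNTG, and a match of letters is not a measured binding site.

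The 6 arrays with Myh2 at 13.83 or more were those of day 1 control mice 1 (array 2) and 2, 18 µg mouse 3 and 162 µg mouse 3 on day 1, and 18 µg mouse 1 and 54 µg mouse 1 (array 2) on day 28. On these 6 arrays Tnnt1, the troponin T of slow fibres, read 12.76 to 16.29, and on the other 6 of the 12 it read 9.34 to 11.14. Tnni1, the troponin I of slow fibres, read 9.54 to 13.36 on the 6 and 6.43 to 8.20 on the other 6. Myl2, the regulatory light chain of slow skeletal and ventricular muscle and not one of the 40 genes, read 12.24 to 16.42 on the 6 and 6.29 to 7.17 on the other 6. Ankrd2, a stretch-responsive protein of slow fibres, read 9.57 to 13.21 and 6.33 to 6.59, and Myh7, the slow heavy chain, 13.14 to 16.79 and 10.71 to 12.03. These 5 genes were therefore high on the same 6 arrays, but not every gene of slow fibres was. Mybpc1, the slow myosin-binding protein C, read 12.29 to 15.28 on the 6 and 9.39 to 13.19 on the other 6. Tnnc1, the slow troponin C, read 9.19 to 13.24 and 7.91 to 13.09, and Myl3, a slow light chain, 13.98 to 17.49 and 14.45 to 17.49. These 3 overlapped. Myh1 (13.97 to 16.90 and 11.18 to 15.31), Actn3 (8.61 to 14.05 and 10.08 to 12.94), the actin crosslinker of fast fibres, and Mybpc2 (10.32 to 14.01 and 9.63 to 12.37) overlapped between the same sets. The arrays that held the 40 genes at a high level thus did not carry them in 1 fixed proportion, and these 6 against 6 arrays, being read from the levels, carry no test.

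**Figure D3:**
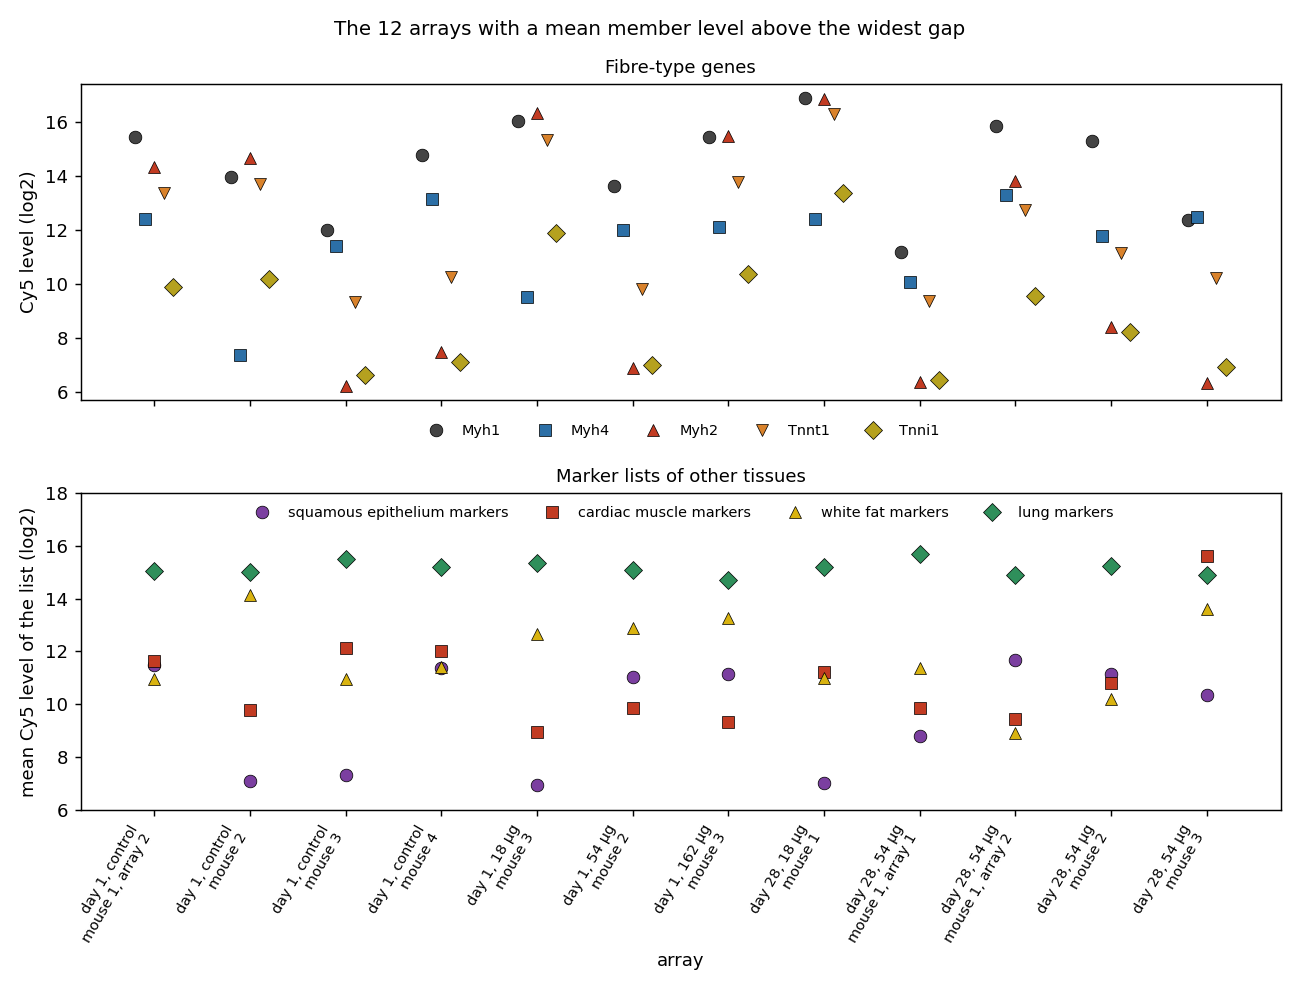
Top: log2 Cy5 level of the fast heavy chains Myh1 and Myh4, of the type IIa heavy chain Myh2 and of the slow troponins Tnnt1 and Tnni1 on each of the 12 arrays with a high mean of the 40 genes. Bottom: mean log2 Cy5 level of 4 marker lists on the same arrays. Myh2 was at 13.83 or more on 6 arrays and at 8.39 or less on the other 6, and squamous markers were at 8.80 or more on 8 arrays and at 7.33 or less on the other 4.

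Among the 7 genes of the Z disc and of sarcomere upkeep, Actn3 read 8.61 to 14.05 on the 12 arrays and 6.01 to 6.83 on the 24, Myoz1, a calcineurin-binding Z-disc protein, 9.72 to 14.52 and 6.19 to 6.68, and Myot (myotilin) 7.92 to 13.73 and 5.88 to 6.18. Myot was above background on all 12 and on none of the 24. Xirp2, an actin-binding protein of cell junctions, read 6.61 to 10.19 and 5.89 to 6.51. None of these 4 overlapped between the sets. Smpx, a small protein of striated muscle, read 7.43 to 10.59 and 5.86 to 8.15, Klhl41, an adaptor that stabilizes nebulin, 6.58 to 9.88 and 5.92 to 7.05, and Trim63, a ubiquitin ligase of muscle wasting, 6.97 to 11.59 and 5.80 to 8.59, and these 3 did overlap. The lowest, median and highest levels of Trim63 over all arrays were 5.80, 6.69 and 11.59.

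Among the 8 genes of calcium handling and excitation, Atp2a1, the calcium pump of fast fibres, had lowest, median and highest levels of 6.76, 7.27 and 13.53, Pvalb (parvalbumin, a calcium buffer of fast fibres) of 6.86, 8.22 and 15.42 and Ryr1, the calcium release channel, of 7.06, 7.51 and 13.58. None of the 3 overlapped between the 12 and the 24 arrays. Pvalb, for example, read 9.76 to 15.42 on the 12 and 6.86 to 8.61 on the 24. Casq1 (calsequestrin, the calcium store of the reticulum) read 6.92 to 11.21 and 5.79 to 6.35. Cacna1s and Cacng1, subunits of the voltage sensor in the T-tubule, read 10.21 to 15.46 and 6.74 to 10.79 on the 12 arrays and 8.88 to 9.91 and 5.71 to 6.39 on the 24, again without overlap. Srl (sarcalumenin) read 8.29 to 13.08 and 6.44 to 9.95, and Jph1, which ties the reticulum to the T-tubule, 6.19 to 7.42 and 5.96 to 6.33, both with overlap. Jph1 was above background on only 7 of the 36 arrays, all of them among the 12.

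Among the 8 genes of energy metabolism, Ckm, the creatine kinase of muscle, had the widest range. In day 1 control mice, the level of Ckm was 15.13 and 6.34 on the second and first array of mouse 1, and 11.90, 11.11 and 13.59 in mice 2, 3 and 4. At 18 µg on day 1 it was 6.06 and 6.45 in mouse 1, 6.31 in mouse 2 and 14.44 in mouse 3, at 54 µg 6.47 and 7.18 in mouse 1, 12.88 in mouse 2 and 6.25 in mouse 3, and at 162 µg 6.73 and 6.15 in mouse 1, 6.56 in mouse 2, 13.79 in mouse 3 and 7.53 in mouse 4. Apart from the first array of control mouse 1, the controls of day 1 lay at 11.11 or more and each dose group held 1 mouse above 12. In day 28 control mice it was 6.46 and 6.71 in mouse 1, 6.70 in mouse 2 and 6.27 in mouse 3. At 18 µg on day 28 it was 16.06, 7.04, 7.18 and 9.08 in mice 1 to 4, at 54 µg 14.91 and 10.63 in mouse 1 and 13.58, 12.74 and 6.14 in mice 2, 3 and 4, and at 162 µg 6.62 and 7.49 in mouse 1 and 6.20, 6.81 and 6.07 in mice 2, 3 and 4. All 4 mice at 162 µg and all 3 controls of day 28 stayed at or under 7.49. Eno3 (the enolase of muscle) had lowest, median and highest levels of 10.56, 11.30 and 16.34, Pygm (glycogen phosphorylase) of 9.39, 9.99 and 14.36, Pfkm (phosphofructokinase) of 10.30, 10.81 and 15.31 and Cox6a2, a subunit of cytochrome oxidase in heart and skeletal muscle, of 11.51, 12.91 and 17.81. These 4 were above background on all 36 arrays. Pgam2 (phosphoglycerate mutase) read 10.64 to 15.73 on the 12 and 7.00 to 11.65 on the 24, Ampd1 (AMP deaminase) 6.94 to 11.37 and 6.27 to 7.00, and Phkg1 (phosphorylase kinase) 6.51 to 9.85 and 6.31 to 7.44, all with overlap. Of the 8, the sets did not overlap for Ckm, Eno3 and Pygm.

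The muscle transcription factors were Myf6, expressed in mature fibres, and Myod1, expressed in activated satellite cells and in fibres. Myf6 had lowest, median and highest levels of 6.03, 6.42 and 10.66, and read 7.19 to 10.66 on the 12 arrays and 6.03 to 6.62 on the 24. Myod1 stayed between 6.14 and 7.42, with a median of 6.35, and was above background on 8 of the 12 and 5 of the 24 arrays. Over all roles, the lowest level on the 12 arrays was above the highest on the 24 for 25 of the 40 genes: 6 of 8 of the thin filament, 5 of 7 of the thick filament, 4 of 7 of the Z disc, 6 of 8 of calcium handling, 3 of 8 of energy metabolism and 1 of 2 transcription factors. The mean of the 40 genes made the split, so these counts are a description. The same count over all genes of the array was not made, so no share stands beside them.

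The 7 mice that were hybridized on 2 arrays, once on slide 1 and once on slide 5, gave the 40 genes at very different levels in 2 cases. In mouse 1 of the day 1 controls the mean of the 40 genes was 12.64 on array 2 and 7.20 on array 1, and 37 of the 40 were higher on array 2 by more than 1 log2 unit, by up to 11.37 for Acta1. In mouse 1 at 54 µg on day 28 it was 12.65 on array 2 and 9.32 on array 1, and 37 genes were higher on array 2, by up to 7.48 for Myh2. In the other 5 mice the means differed by -0.22 to 0.24 and no more than 4 genes differed by over 1 log2 unit in either direction. Of all 23255 genes tested, 8.55% differed by over 1 log2 unit in the control mouse and 6.16% in the 54 µg mouse. In the other 5 mice 1.24% to 4.39% did. The labels do not say whether the 2 arrays of a mouse carried 1 RNA extract. The 2 arrays correlated at r = 0.939 and 0.963 over the 23255 genes tested in these 2 mice and at 0.978 to 0.988 in the other 5, across genes, which are not independent replicates. Squamous markers were at 11.49 on array 2 and 6.96 on array 1 of the control mouse, and at 11.67 and 8.80 in the 54 µg mouse. Lung markers were at 15.05 on array 2 and 15.53 on array 1 of the control mouse, and at 14.89 and 15.68 in the 54 µg mouse. The 2 arrays of each mouse share the number that was read as the mouse, while the running sample numbers in their titles differ. The cause of the difference was not tested.

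**Figure D4:**
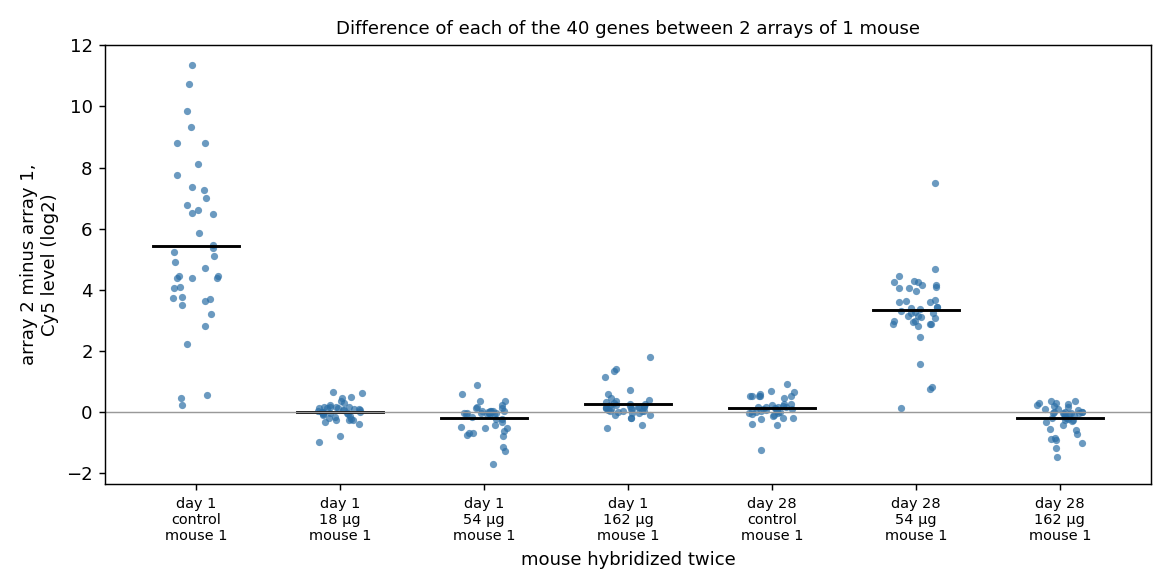
Difference in log2 Cy5 level between array 2 and array 1 of the same mouse for each of the 40 genes (points), with the mean (line), in the 7 mice hybridized on 2 arrays. The mean difference was 5.43 in mouse 1 of the day 1 controls, 3.34 in mouse 1 at 54 µg on day 28, and between -0.22 and 0.24 in the other 5.

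The reference channel is the same cell-line RNA on every array, yet for some of these genes it was higher where the lung channel was. For Tnnc2 the raw Cy5 and Cy3 intensities were 183627 and 3154 on array 2 of day 1 control mouse 1, and 160 and 292 on array 1. For Acta1 they were 178286 and 1490.5 on array 2, and 99 and 473 on array 1. The normalized Cy3 level ranged over 4.49 log2 units for Tnnt3, 4.00 for Tnnc2, 3.51 for Ckm, 3.40 for Myh2 and 3.09 for Pvalb, but only over 0.49 for Myl1 and 0.34 for Pgam2. It ranged over more than 1 log2 unit for 16 of the 40 genes. For those genes the log2(Cy5/Cy3) ratio moved less than the Cy5 level: Tnnc2 spanned -1.58 to 6.52 as a ratio and 6.53 to 17.98 as a Cy5 level. The changes between groups below rest on the ratio. What raised Cy3 on these spots was not tested.

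Markers of other tissues moved on some of the same arrays. The mean over 42 other skeletal muscle genes was 8.87 to 11.87 on the 12 arrays, with 33 to 41 of them above background, and 7.34 to 9.11 on the 24, with 24 to 32. The widest ranges in that list were those of Mb (myoglobin), Tcap (a titin-capping Z-disc protein) and Sln (an inhibitor of the calcium pump). They read 12.98 to 17.71, 13.26 to 17.60 and 12.97 to 16.91 on the 12 arrays. On the 24 they read 6.05 to 13.97, 8.52 to 14.18 and 6.07 to 14.72, highest in 18 µg mouse 4 on day 28, so each overlapped between the sets. The mean over 22 squamous epithelium markers was 8.80 to 11.67 on 8 of the 12 arrays, and 6.94 to 7.33 on the other 4, which were day 1 control mice 2 and 3, 18 µg mouse 3 on day 1 and 18 µg mouse 1 on day 28. It was 6.84 to 7.24 on the 24 arrays. The list mean was therefore raised on some of the 12 arrays and on none of the 24, but single genes of the list were not always low there: Krt15 reached 10.15 on array 2 of mouse 1 and Calml3 9.70 in mouse 4 at 162 µg on day 1, both among the 24 arrays. The keratin Krt13, for example, was at 16.24 in day 1 control mouse 4 and 6.31 in control mouse 3. Krt1, Ivl and Dsc3 of that list stayed near background throughout, with ranges of 0.67, 0.66 and 0.53.

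The mean over 10 cardiac markers was 8.96 to 15.64 on the 12 arrays and 7.67 to 13.42 on the 24, and that over 7 white fat markers 8.90 to 14.14 and 7.30 to 13.57, so both overlapped widely. Brown fat markers (5 genes) read 7.06 to 10.50 and 6.66 to 9.61, and smooth muscle markers (8 genes) 11.04 to 12.89 and 10.94 to 12.13. The 10 genes of slow and developmental fibres read 10.70 to 14.09 and 8.49 to 10.97. The mean over the 6 satellite cell markers was 6.31 to 7.06 and 6.17 to 6.41, with Myf5 between 5.90 and 6.07 on every array. Within that list Cdh15 read 7.16 to 9.78 on the 12 and 6.47 to 7.14 on the 24, and Myog 6.39 to 8.19 and 6.04 to 6.32. Pax7, Megf10 and Chodl ranged over 0.82, 0.72 and 0.61 on all arrays. Cartilage (6.54 to 6.83 and 6.51 to 6.86), thymus (6.46 to 7.20 and 6.52 to 7.35), thyroid (6.11 to 6.56 and 6.14 to 6.45) and nerve markers (9.95 to 10.78 and 10.31 to 11.07) overlapped between the sets. Lung markers (8 genes on the array, among them the surfactant proteins) were at 14.70 to 15.68 on the 12 and 15.28 to 15.73 on the 24, so every array carried lung RNA. The part of these tissues in the level of the 40 genes was not tested.

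Some of the 40 genes also varied within the 24 arrays. The array of the 18 µg mouse 4 on day 28 had the highest cardiac mean of the 24, 13.42 against at most 11.50 on the other 23. The same array also had the highest means of the 24 for white fat (13.57), other skeletal muscle (9.11) and slow and developmental fibres (10.97). On it 14 of the 40 genes had their highest level of the 24 arrays, and 10 were more than 1 log2 unit above the median of the other 23. The array was picked for its cardiac mean, and these counts were not made over all genes. No share stands beside them, so they are a description. These 10 were Myl1 (11.48, against a median of 7.28), Pgam2 (11.65, 7.72), Srl (9.95, 7.10), Ckm (9.08, 6.47), Trim63 (8.59, 6.19), Cox6a2 (14.72, 12.40), Smpx (8.15, 6.20), Eno3 (12.46, 11.03), Atp2a1 (8.44, 7.09) and Pfkm (11.71, 10.66). Acta1 (6.65, 6.48), Tnnc2 (7.09, 7.00), Myh1 (6.09, 6.12) and Tnnt3 (7.29, 6.97) were at most 0.32 above that median. The ranges of Myl1, Pgam2 and Srl on the 24 arrays, given above, thus held this array as their highest value.

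Outside the 40 genes, the 10 genes whose level followed the mean of the 40 most closely over the 36 arrays were ranked by the root mean square difference after both were centred. Among 21113 other genes with a symbol they were Lmod3 (0.23), Klhl31 (0.28), Rpl3l (0.31), Hspb6 (0.35), Cavin4 (0.39), Smtnl1 (0.41), Stxbp4 (0.44), Ldb3 (0.47), Itgb1bp2 (0.48) and Cmya5 (0.49). The mean itself spanned 6.45 log2 units, and the 40 genes had a median difference of 0.91 from the mean of the other members. Lmod3 (leiomodin, a nucleator of thin filaments) ranged from 6.92 to 14.01, and Rpl3l (a ribosomal protein of striated muscle) from 6.16 to 13.94. Smtnl1 was above background on 12 arrays. Lmod3, Rpl3l and Ldb3 were also in the list of other skeletal muscle genes.

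The design asks whether a dose of the nanoparticles or the time after it changed gene expression, through 12 comparisons. With equal weights for all mice, none of the 40 genes passed a Benjamini-Hochberg adjusted p under 0.05 in limma in any of the 12. Of the 40, 37 were tested: Myh2, Jph1 and Myod1 were not above background in at least 3 mice of any group. Which genes passed that filter depends on how many mice of a group were high: Myh1, Myot and Cacng1, for example, were above background on none of the 24 arrays and passed through groups where they are high. The medians below and the counts of unadjusted p-values, signs and groups without overlap, also where a share of all genes stands beside them, therefore only describe these 37 and support nothing. The median residual SD of the 37 was 1.91 log2 units, against 0.20 over all 23255 genes tested, 22 of the 37 were among the 100 genes of largest residual SD, and the median standard error of a change was 1.27 to 1.37, against 0.14 to 0.15 over all genes in the 9 comparisons of 2 groups. Array quality weights were computed per mouse, after repeat arrays were averaged, and give less weight to mice that depart from their group. With these weights, 24 genes passed at 162 µg on day 1 (lower, as did 4.48% of all genes) and 27 at 54 µg on day 28 (higher, 4.22%). At 162 µg against 54 µg on day 28, 32 passed (lower, 6.25%), and 34 in the difference of the 54 µg changes between days (higher, 6.78%). A mouse whose level is unlike its group's can lose weight in this fit, and the same filter chose the genes. The counts of calls with these weights therefore also only describe the 37 genes and support nothing.

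At day 1, the median change of the 37 genes was -1.27 at 18 µg, -1.92 at 54 µg and -1.47 at 162 µg, each against control, beside a median of at most 0.01 over all genes. All 3 share the 4 control mice, each of which had an array above the gap. The median at 18 µg was -3.02 without mouse 3, -0.54 without mouse 2 and -0.53 without mouse 1 of that dose, at 54 µg -1.25 without mouse 3, and at 162 µg -2.56 without mouse 3. None was called in either direction, where 0%, 0.0516% and 1.69% of all genes tested were called (at 162 µg, 1.5% higher and 0.194% lower). Acta1 averaged -0.10 ± 4.40 as log2(Cy5/Cy3) at 162 µg and 5.14 ± 1.98 in controls (SD, n = 4 each), a limma change of -5.24 (95% interval -10.49 to 0.00; limma adjusted p = 0.386). The smallest adjusted p of the 37 at 162 µg was 0.337, for Tnnc2, which averaged 0.43 ± 3.44 at 162 µg and 5.00 ± 1.69 in controls. The treated mice overlapped the controls for every one of the 37 genes at 162 µg (5.98% of all genes did not overlap) and at 18 µg (6.48%), and for 36 of 37 at 54 µg (9.06% did not). At an unadjusted p under 0.05, 1 of the 37 passed at 162 µg (13% of all genes did), and none at 54 µg (7.6%) or 18 µg (4.09%). The median change at 162 µg against 54 µg was 0.12 (-0.93 without mouse 3 at 162 µg and 1.29 without mouse 2 at 54 µg), with none called (0.0043% of all genes), none at an unadjusted p under 0.05 (4.7%) and none without overlap (6.26%).

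At day 28, the median change of the 37 genes was 1.67 at 18 µg, 2.41 at 54 µg and -0.03 at 162 µg, each against the same 3 control mice, beside medians between -0.02 and 0.01 over all genes. Without mouse 1 at 18 µg, the median at 18 µg was 0.10. None was called, where 0%, 0% and 0.628% of all genes were (at 162 µg, 0.619% higher and 0.0086% lower). At 54 µg, 36 of the 37 changes were above 0 and 16 had an unadjusted p under 0.05 (6.15% of all genes did). Acta1 averaged 4.19 ± 4.39 at 54 µg (SD, n = 4) and -2.15 ± 0.23 in controls (n = 3), a change of 6.33 (95% interval 0.66 to 12.00; limma adjusted p = 0.749). The 54 µg group held 3 mice above the gap and 1, mouse 4, below it, and its ratios did not overlap the controls for 3 of the 37 genes (7.03% of all genes did not). At 18 µg, 0 of the 37 had an unadjusted p under 0.05 (4.33% of all genes did) and 2 did not overlap the controls (4.52%). At 162 µg the 37 changes lay between -0.39 and 0.37, with 0 at an unadjusted p under 0.05 (4.79% of all genes) and 3 without overlap (9.48%). At 162 µg against 54 µg the median was -2.47, all 37 changes were below 0, none was called (1.01% of all genes), 22 had an unadjusted p under 0.05 (12.5%) and 3 did not overlap (7.33%). Its smallest adjusted p was 0.263, for Actn3, which averaged -3.32 ± 0.11 at 162 µg and 1.17 ± 2.95 at 54 µg (SD, n = 4 each).

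Controls of day 28 differed from controls of day 1 by a median of -2.58 over the 37 genes, against 0.02 over all genes. None of the 37 was called (0% of all genes), 20 had an unadjusted p under 0.05 (5% of all genes did), and for 34 of the 37 the ratios of the 3 mice of day 28 did not overlap those of the 4 of day 1 (12.4% of all genes did not). Acta1 averaged -2.15 ± 0.23 in day 28 controls (SD, n = 3) and 5.14 ± 1.98 in day 1 controls (n = 4), a change of -7.29 (95% interval -12.95 to -1.62; limma adjusted p = 0.777). The first array of control mouse 1 of day 1 alone lay with the day 28 controls, and that mouse counts here with the mean of its 2 arrays. On slide 1, where that array stood beside a day 28 control array, the median difference was 0.07, and on slides 3, 4 and 5 it was -1.82, -3.57 and -4.26. The difference between the change at a dose on day 28 and that on day 1, day 28 minus day 1, had a median of 2.94 at 18 µg, 4.23 at 54 µg and 1.53 at 162 µg, with none of the 37 called (0%, 0% and 0.0258% of all genes). At 54 µg, 24 of the 37 had an unadjusted p under 0.05 (10.2% of all genes did), at 18 µg 2 (6.68%) and at 162 µg none (3.87%). At 54 µg Acta1 gave 10.96 (95% interval 2.95 to 18.98; limma adjusted p = 0.489). These differences of changes rest on both control groups.

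Slides held 1 array of a group at most, so each slide gives 1 treated and 1 control array. At 162 µg on day 1, the median difference over the 37 genes was -0.07, -3.47, 2.17, -3.51 and -4.28 on slides 1 to 5. At 54 µg on day 28 it was 1.43, 3.50, 0.03 and 4.42 on slides 1, 3, 4 and 5. At 18 µg on day 28 it was 0.02, 0.12 and 0.22 on slides 3, 4 and 5, while the 1 high mouse of that group stood on slide 2, which held no control of day 28. At 54 µg on day 1 it was 0.19, 1.07, -3.69 and -4.44, and at 18 µg on day 1 -0.07, -2.22, 0.70 and -4.64, each on slides 1, 3, 4 and 5. The direction thus differed between slides at all 3 doses of day 1. Of the lists of other tissues, none had a called gene in any of the 12 comparisons. The squamous list, for example, changed by a median of -0.69 at 162 µg on day 1 and 2.81 at 54 µg on day 28, each against control, over its 16 genes tested.

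**Figure D5:**
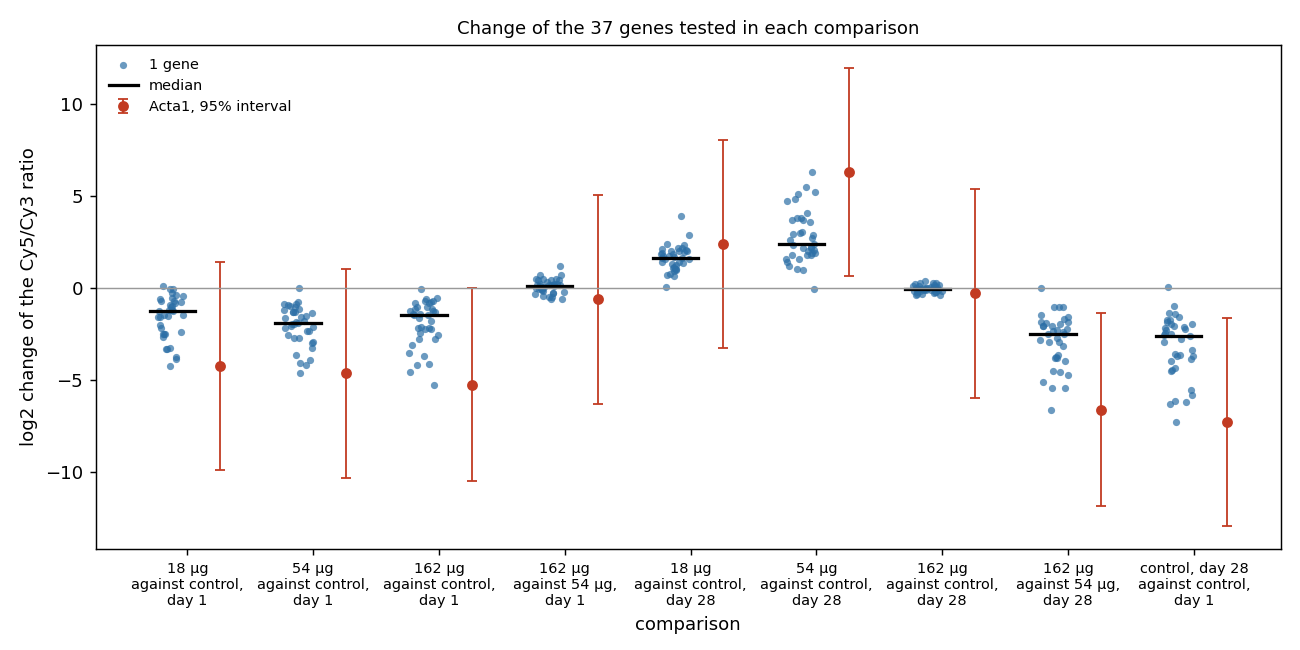
Fitted log2 change of each of the 37 tested genes (blue points, with the median as a line) in the 9 comparisons of 2 groups, and that of Acta1 with its 95% interval (red). The median is -1.92 to -1.27 at the 3 doses of day 1 and 2.41 at 54 µg on day 28, and with equal weights for all mice none of the 37 genes passed an adjusted p under 0.05.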

How the data were processed

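Lung RNA (Cy5) and reference RNA (Cy3) of 29 mice were read on 36 two-colour arrays, on 5 slides. The deposited scanner files hold raw median spot and background intensity, quantified with Agilent Feature Extraction 11.0.1.1, per the file headers, and a log10 ratio that the software had background-subtracted and dye-normalized, per the file headers. The authors' deposited value table holds log2 ratios whose normalization is not given in the sources used here, and its columns correlated with the ratios computed here at 0.986 to 0.997. It served as an alternative only.

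Median intensities (mean intensities were not in the files) were background-corrected with normexp (offset 50) and normalized by loess within arrays, with weight 0 for control and outlier spots (0.399% flagged, 0 saturated). Aquantile then gave log2 Cy5 and Cy3 levels. Of 55681 probes, 28026 were named through RefSeq accessions (GRCm38.p6 table, names only), for 21154 symbols, and each gene name kept its brightest probe. Between 48.6% and 62.2% of probes were well above background per array, and median raw Cy5 was 103 to 143. The 23255 genes tested were well above background in all arrays of 3 or more mice in some group. Repeat arrays were averaged per mouse. A single limma model (R 4.3.3, limma 3.58.1) over 8 groups gave 12 comparisons, adjusted by Benjamini-Hochberg at 0.05, with 21 residual and 2.9 prior degrees of freedom. The fit was tested on simulated data. Sample numbers, other than the running numbers in the titles, were read as mice. Nothing in the labels says more of how separate they are, so p-values measure the spread between these samples.

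The 40 genes, the marker lists and the tests were chosen with earlier results of these data known. All 40 genes are named, 20 of them with their level in every sample or the lowest, median and highest, and up to 3 genes of widest range per other list. Alternatives changed the background correction, normalization, filter, probe rule, repeat arrays, slide block, array weights, samples in the fit, the mouse with conflicting labels and the source of values, and left out each mouse in turn.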

Additional observations from a re-analysis of the deposited data

Results flagged for a closer look

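In 2 groups of 4 mice, 1 mouse stood apart in the mean level of the 40 genes by more than Dixon's limit for 4 samples. At 162 µg on day 1 this was mouse 3, whose gap to the next mouse was 0.93 of the group's range, and at 18 µg on day 28 it was mouse 1, with 0.911. Of the 20 genes whose levels are given per sample or by range, mouse 3 at 162 µg on day 1 stood apart above the others in 17, and mouse 1 at 18 µg on day 28 in 13. Mouse 4 of the day 1 controls stood apart in 2 of the 20, and mouse 4 at 54 µg on day 28 stood apart below the others in 4. Chance alone marks about 1 group in 20 for a single gene, and the 20 genes move together, so they are not 20 separate observations. Groups of 3 mice were not examined in this way.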

How the results depend on the processing

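Over 15 alternative settings and the fits that leave out 1 mouse, 284 of 288 counts of called genes were as reported, and 0 of the 37 genes were called when any 1 mouse was left out. Only array quality weights gave calls: 24 lower at 162 µg on day 1 (4.48% of all genes), 27 higher at 54 µg on day 28 (4.22%), 32 lower at 162 µg against 54 µg on day 28 (6.25%) and 34 higher in the difference of the 54 µg changes between days (6.78%). As said above, these calls only describe the 37 genes and support nothing. Of 288 median changes, 285 moved by less than the spread, the SD between mice within the groups compared of the median ratio over the 37 genes. The scanner's own log ratio gave -3.77 for day 28 against day 1 controls and 5.83 for the difference of the 54 µg changes, and the slide as a block gave -0.34 for 162 µg on day 28. In 10 cases a median had the opposite sign. The spread is wide where a group holds both high and low mice, so a move within it can be large. At 18 µg on day 28 the median went from 1.67 to 0.10 without mouse 1 and counted as within the spread. Of 1152 values for single genes, 1137 stayed on the same side of the threshold, and the other 15 passed it with array quality weights.

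Leaving out 1 mouse at a time, the median change ranged from -2.56 (without mouse 3 at 162 µg) to -1.14 at 162 µg on day 1, from -2.62 to -1.25 at 54 µg, from -3.02 (without mouse 3 at 18 µg) to -0.53 at 18 µg (without mouse 1) and from -0.93 to 1.29 at 162 µg against 54 µg. On day 28 it ranged from -0.11 to 0.02 at 162 µg, from 2.01 to 3.26 at 54 µg, from 0.10 (without mouse 1 at 18 µg) to 2.24 at 18 µg and from -3.36 to -2.10 at 162 µg against 54 µg. For day 28 against day 1 controls it was -2.96 to -2.43, and for the differences of changes 1.103 to 2.69 at 162 µg, 3.75 to 5.19 at 54 µg and 1.71 to 4.80 at 18 µg. The causes were not tested. No paired analysis was possible because sample numbers in different groups are different mice and pair nothing in the labels. The correlation between arrays of a mouse was -0.0338 in the fit with the mouse as a random block. No fit left out the high arrays as a set, since the genes' own level defines them.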

Other observations

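Other genes of the marker lists had wide ranges of log2 Cy5 level over the 36 arrays. In the list of slow and developmental fibres these were Myh8 (11.67), Myl3 (10.58) and Myl2 (10.31), where Myh8 is the perinatal myosin heavy chain. Among cardiac markers they were Nppa (11.77), Myh6 (11.66) and Myl7 (9.03), a natriuretic peptide and atrial contractile proteins. Squamous markers of widest range were Krt13 (10.87), Lor (10.64) and Krtdap (9.74), which belong to keratinizing or stratified epithelium. Smooth muscle markers of widest range were Smtn (5.78), Des (4.70) and Myh11 (3.01), and Des is also made in striated muscle. The range of Smtn rests on 1 array, array 2 of control mouse 1 on day 28, at 7.31, while the others lay between 10.49 and 13.09. Fat markers of widest range were Cfd (10.69), Adipoq (8.80) and Retn (8.60) for white fat and Ucp1 (7.61) and Cidea (7.10) for brown fat. Of the satellite cell markers, Cdh15 (3.30) and Myog (2.15) moved most and Pax7 (0.82) and Myf5 (0.16) little. Ranges of cartilage, thymus and thyroid markers reached 2.69 for Chad, 2.48 for Dntt and 1.24 for Tshr.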
